A study of Mus musculus with 24 samples.

Results

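The comparison described here is between B cell progenitors and common lymphoid progenitors (CLPs) of mice labelled PLCgamma1-/-PLCgamma2+/+. Their blood system came from donor marrow treated to delete Plcg1, with a normal Plcg2 gene. The libraries were chosen by genotype and were paired by the animal identifier in their names, which gave 6 of the 24 RNA-seq libraries, 3 per population, from 3 of the 12 mice. Donor marrow came from poly(I-C)-treated animals with MxCre, a Cre transgene switched on by type I interferon, with floxed Plcg1 alleles and with a YFP reporter, on a mixed 129 and C57BL/6 background. It was transplanted into lethally irradiated congenic CD45.1+ wild-type recipients, and donor CD45.2+ cells were sorted as Lin-IL-7R+ (CLP) and as B220+IgM-IL-7R+ (B cell progenitor). The study showed loss of PLCγ1 protein in YFP+ marrow cells, and most marrow cells were YFP+. The sorts described for RNA-seq name no YFP gate, so complete loss in the sequenced cells is not shown. PLCγ1-null and without PLCγ1 are used below as names for the label PLCgamma1-/-PLCgamma2+/+. The other 18 libraries are the same populations from wild-type (PLCgamma1+/+PLCgamma2+/+), PLCγ2-null (PLCgamma1+/+PLCgamma2-/-) and double-null (PLCgamma1-/-PLCgamma2-/-) marrow. They entered the filter on low counts, the scaling, the spread and the contrasts between genotypes, and they gave values for comparison. The MxCre transgene, the poly(I-C) treatment, the transplantation and the irradiated host were common to all 4 genotypes. The methods describe the mice of the study as young adults of both sexes, with no age for each recipient. The Lin mixture is spelled out for the marrow cultures, where it excluded cells with B220, Mac1, Gr.1, CD4, CD8 or Ter119, and not separately for the sort of CLPs. The number of donors is not given in the sources used here, so the recipients may share a donor. The p-values rest on how the difference between the populations varied between recipients of a genotype, pooled over all 4 genotypes.

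In the bone marrow, CLPs are early lymphoid cells that still express receptors of multipotent progenitors such as FLT3, and they become B cell progenitors when EBF1 and PAX5 switch on the B lineage genes. RAG1 and RAG2 then rearrange the immunoglobulin heavy chain, the product pairs with the surrogate light chain (IGLL1 and VPREB1) in the pre-B cell receptor (pre-BCR), and signals from this receptor and from the IL-7 receptor drive growth and survival. PLCγ1 and PLCγ2 are the enzymes that turn such receptor signals into diacylglycerol and calcium, and the mTOR complexes couple growth signals to glycolysis and protein synthesis.

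Between both populations of the PLCγ1-null mice, 513 of 17212 genes tested (2.98%) were called by edgeR, the rule being a log2 difference of 0.5 or more with an adjusted p no higher than 0.05, 411 of them higher (2.39%) and 102 lower (0.593%) in the B cell progenitors. No gene of the B lineage, CLP, pre-BCR, V(D)J recombination or IL-7 receptor lists was among them. Glycolysis genes, with Gapdh and Pgam1 in front, and ribosomal protein genes, with Rps16 and Rpl29 in front, were called lower in B cell progenitors more often than the genes tested as a whole. A fit on the 6 libraries alone, with their replicate block and 2 residual degrees of freedom, called 94 genes higher and 2 lower (0.705% of 13626), the lower ones being Rps16 and Rpl29. Most genes called higher have exons that lie under the exons of a gene on the other strand.

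The targeted gene was read first. Plcg1 (chr2:160731310-160775760, mm10) was at 70.9, 140 and 110 normalised CPM (reads on a gene scaled to the total of the library) in the CLP libraries of mice 1, 2 and 3 and at 60.3, 78.2 and 97.8 CPM in their B cell progenitor libraries. The wild-type libraries held 101 to 113 CPM in CLPs and 81.2 to 111 CPM in B cell progenitors, so the ranges of both genotypes overlapped. These counts are sums over the whole gene and do not show whether the floxed exons were lost. Plcg2 was at 204, 233 and 230 CPM in the CLP libraries and at 183, 196 and 229 CPM in the B cell progenitor libraries. Neither gene was called between the populations (Plcg1 log2 difference -0.42 ± 0.19 (SE), adjusted p = 0.209; Plcg2 -0.14 ± 0.15, adjusted p = 0.559).

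Reads on genes numbered 9837850 to 22518025 in the CLP libraries and 5735871 to 7515523 in the B cell progenitor libraries, so that 3 reads amounted to 0.149 to 0.294 normalised CPM and to 0.38 to 0.513 normalised CPM. The populations also differed in how reads fell on the annotation. The share of reads on no gene was 24.6, 22.2 and 33.8% in the CLP libraries and 66.5, 87.3 and 73.6% in the B cell progenitor libraries, and over all 12 mice it was 17.9 to 45.2% against 59.9 to 87.3%. Reads that the counting left ambiguous made up 1.685 to 1.804% of the reads on genes plus ambiguous reads in CLPs and 0.873 to 0.947% in B cell progenitors. Tsix, the transcript that runs against Xist on the X chromosome, had 0 to 0.011 reads per 100 Xist reads in CLPs and 7.985, 4.819 and 5.648 in the B cell progenitors. The strand setting of the counting is not given in the sources used here, and its part in the differences was not tested.

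The libraries of a mouse were far more alike in mice 1 and 3 than in mouse 2. Over 6513 genes with a mean of at least 20 CPM and no exon overlap with the other strand, the log2 difference between the B cell progenitor and the CLP library had an SD of 0.26 in mouse 1, 0.84 in mouse 2 and 0.32 in mouse 3. At least 2-fold apart were 0.537% of these genes in mouse 1, 17.8% in mouse 2 and 0.461% in mouse 3. Libraries of the same population from different mice were less alike than both libraries of mouse 1 or of mouse 3, with SDs of 0.39 to 0.66 among CLPs and 0.45 to 0.53 among B cell progenitors. Among all 12 CLP libraries of the series, the one nearest to B cell progenitor library 1 and to library 3 was that of the same mouse, while for library 2 its own CLP library ranked 12 of 12. For many gene groups the pooled difference was carried by mouse 2, as the list medians below show, and values without mouse 2 are given beside them.

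**Figure D1:**
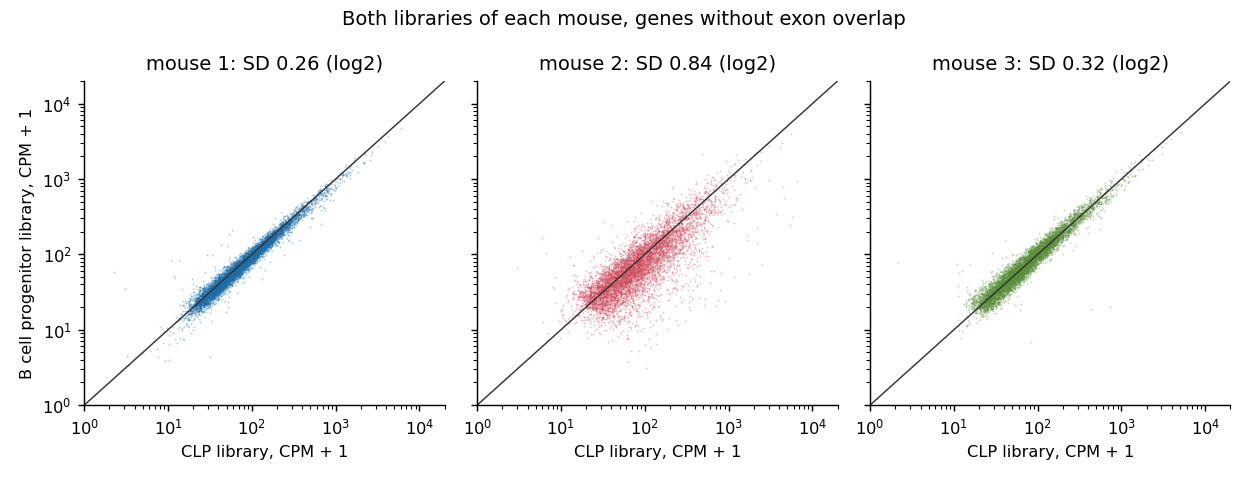
Normalised CPM + 1 of the 6513 genes without exon overlap in the B cell progenitor library (vertical, log scale) against the CLP library (horizontal, log scale) of mice 1, 2 and 3, 1 point per gene, with the line of equal levels. Genes of mice 1 and 3 lie close to the line (SD of the log2 difference 0.26 and 0.32), and those of mouse 2 spread widely around it (SD 0.84).

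The libraries labelled CLP held B lineage transcripts at the levels of the B cell progenitor libraries in mice 1 and 3. Cd79b, a signalling chain of the B cell receptor, was at 450, 218 and 293 CPM in the CLP libraries and at 429, 552 and 304 CPM in the B cell progenitor libraries of mice 1, 2 and 3 (log2 difference 0.44 ± 0.49, adjusted p = 0.569). The values were nearly equal within mouse 1 and within mouse 3, and only in mouse 2 was the B cell progenitor library clearly above its CLP partner. The summed level of the 14 B lineage markers was 3978, 4143 and 4667 CPM in CLPs against 3974, 7400 and 4912 CPM in B cell progenitors, and none of the 14 was at 0. In the wild-type CLP libraries that sum ran from 3269 to 8815 CPM. In bulk samples, fewer cells of a type and less RNA per cell cannot be told apart. The names CLP and B cell progenitor are therefore used below for the sorted gates.

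**Figure D2:**
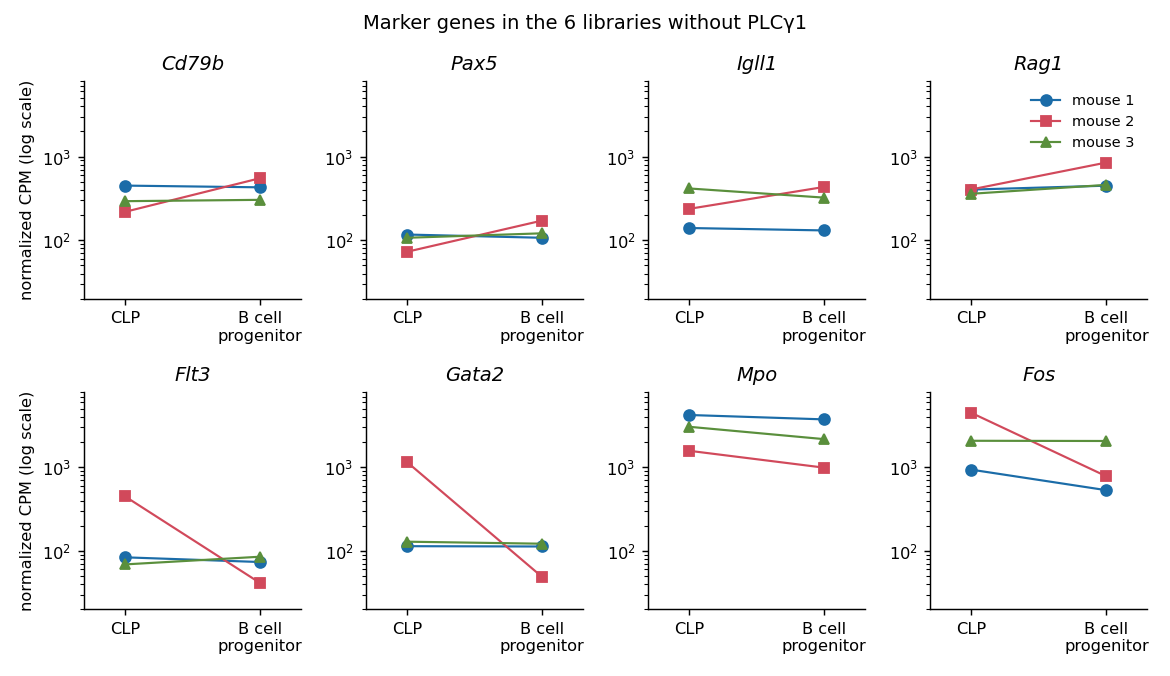
Normalised CPM (log scale) of 4 B lineage genes (upper row), the progenitor genes Flt3 and Gata2, the myeloid gene Mpo and the immediate early gene Fos (lower row) in the CLP and the B cell progenitor library of each mouse, joined by a line. In mice 1 and 3 most lines are flat, and in mouse 2 Flt3 runs from 451 to 41.3 CPM and Gata2 from 1160 to 48.7 CPM.

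Among the B lineage genes the differences were largest in mouse 2. Pax5, the factor that holds cells in the B lineage, was at 117, 72.7 and 107 CPM in CLPs and at 107, 172 and 121 CPM in B cell progenitors, and the ranges met at 107 and 117 CPM (log2 difference 0.43 ± 0.46, adjusted p = 0.549). Ebf1, which acts before Pax5, was at 236, 259 and 386 CPM and at 220, 500 and 444 CPM (0.35 ± 0.45, adjusted p = 0.626). Its B cell progenitor level was lowest in mouse 1, below all CLP libraries. Igll1, a chain of the surrogate light chain, differed more between mice than between gates, with 140 and 131 CPM in mouse 1, 237 and 434 CPM in mouse 2 and 416 and 323 CPM in mouse 3. Vpreb1, its partner, was at 84.1, 138 and 229 CPM in CLPs and at 57.6, 222 and 172 CPM in B cell progenitors, higher in the CLP library in mice 1 and 3. The list median was 0.30 on the log2 scale in the fit, with -0.04, 0.91 and 0.03 in mice 1, 2 and 3 and -0.02 without mouse 2, where the median of all genes tested was 0.12. Both tools called 0 of the 14, and 0 had an unadjusted p under 0.05.

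Of the 17 recombination genes, 7 were higher in the B cell progenitor library of each mouse and 0 were lower in each. Of all 17212 genes tested, 4576 were higher in each mouse and 3417 were lower. Exon overlap with a gene on the other strand was found for 5 of the 17. Rag1 was at 403, 404 and 359 CPM in CLPs and at 449, 849 and 459 CPM in B cell progenitors, and the libraries of both gates did not overlap, which was so for 14.8% of all genes tested in that direction. Its log2 difference of 0.53 ± 0.43 did not pass the test (adjusted p = 0.441), and without mouse 2 it was 0.23. Rag2 was at 40.2, 51.9 and 57.9 CPM and at 47.3, 114 and 64.1 CPM, higher in the B cell progenitor library of each mouse (0.51 ± 0.31, adjusted p = 0.316). Rag2 was not in the fit that left out genes with exons under those of the other strand. Dntt, which adds untemplated bases at the joins, went the other way in mouse 2, from 1253 to 565 CPM, and stood at 131 and 139 CPM in mouse 1 and at 540 and 486 CPM in mouse 3. Of these 17 genes for V(D)J recombination and end joining, edgeR and DESeq2 called 0, and 2 had an unadjusted p under 0.05. A positive difference was found for 14 of them, and for 10067 of all 17212 genes tested. The median was 0.28, or 0.04 without mouse 2. Cd24a, a surface protein that rises early in the B lineage, was at 1076, 482 and 863 CPM and at 1143, 2179 and 1275 CPM and did not overlap either (0.93 ± 0.47, adjusted p = 0.252).

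For comparison, DESeq2 called 7.7% of all genes tested, and the fit without mouse 2 called 1.56%. Of the 31 B lineage transcription factors, edgeR called 0 and DESeq2 1, and 2 had an unadjusted p under 0.05. Irf4, a factor induced by the pre-BCR, was at 190, 118 and 206 CPM in CLPs and at 173, 505 and 383 CPM in B cell progenitors, with log2 differences of -0.13, 2.09 and 0.89 in mice 1, 2 and 3. Bach2 was at 274, 142 and 251 CPM and at 310, 501 and 367 CPM, and the ranges of the gates did not overlap (0.84 ± 0.49, adjusted p = 0.30). Bach2 was not in the fit that left out genes with exons under those of the other strand. Runx3 was at 68.2, 197 and 92.2 CPM and at 56.8, 28.5 and 65.3 CPM, lower in each B cell progenitor library (-1.14 ± 0.55, adjusted p = 0.234). Tcf3, which encodes E2A, and Foxo1 had smaller differences of 0.21 ± 0.30 and 0.30 ± 0.30. Of the 38 pre-BCR and B cell receptor genes, both tools called 0 and 6 had an unadjusted p under 0.05, with a median of 0.05. Syk, the kinase next to the receptor, was at 779, 629 and 574 CPM in CLPs and at 717, 1057 and 777 CPM in B cell progenitors. Btk, which activates PLCγ2, was at 140, 163 and 133 CPM and at 145, 181 and 137 CPM, nearly level within each mouse (0.08 ± 0.13, adjusted p = 0.698). Since no B lineage or pre-BCR gene was called, no promoter is shown.

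Markers of CLPs and multipotent progenitors were carried by the CLP library of mouse 2. Their 24 genes summed to 2396, 5148 and 2122 CPM in the CLP libraries and to 2360, 1680 and 2128 CPM in the B cell progenitor libraries. Flt3, the cytokine receptor of lymphoid progenitors, was at 83.9, 451 and 69.0 CPM in CLPs and at 73.7, 41.3 and 85.3 CPM in B cell progenitors. Gata2, a factor of multipotent cells, was at 114, 1160 and 129 CPM and at 113, 48.7 and 122 CPM. In both genes mice 1 and 3 were level and mouse 2 alone differed, and without mouse 2 their differences were 0.03 and -0.08. Il7r, used in both gates, was at 137, 438 and 272 CPM and at 156, 386 and 282 CPM (0.02 ± 0.12, adjusted p = 0.936), an order of the mice that both gates shared. Procr, at most 1.47 CPM in any library, was the only marker of the list at 0 in a library. Both tools called 0 of the 24, 1 had an unadjusted p under 0.05, and the median was -0.49 against -0.10 without mouse 2. In each mouse 12 of the 24 were lower in the B cell progenitor library (50%, against 19.9% of all genes tested).

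Genes of other cell types were present in both gates. The 26 myeloid markers summed to 13053, 4743 and 8921 CPM in CLPs and to 11470, 3387 and 7354 CPM in B cell progenitors, with no marker at 0 in any library and with mouse 1 highest in both gates. Mpo, the peroxidase of granulocyte precursors, was at 4219, 1576 and 3051 CPM and at 3736, 989 and 2169 CPM, lower in the B cell progenitor library of each mouse but with ranges that overlapped (-0.45 ± 0.24, adjusted p = 0.275). Lower in the B cell progenitor library of each mouse were 16 of the 26 myeloid markers (61.5%, against 19.9% of all genes tested). Of the 26 myeloid markers 1 was called (3.85%, near the 2.98% of all genes tested). It was Csf2ra, a chain of the receptor for GM-CSF, at 219, 113 and 203 CPM and at 192, 66.8 and 134 CPM (-0.51 ± 0.11, adjusted p = 0.0302). Csf2ra was called neither without the replicate block nor without mouse 2 or mouse 3. The 22 NK and innate lymphoid markers summed to 414, 2088 and 761 CPM and to 396, 254 and 599 CPM, again with the CLP library of mouse 2 above the other 5. Gata3, a factor of T cells and innate lymphoid cells, was at 2.46, 103 and 53.3 CPM in CLPs and at 2.39, 2.15 and 20.2 CPM in B cell progenitors. Both tools called 0 of these 22, 0 had an unadjusted p under 0.05, and the median of -0.96 became -0.24 without mouse 2.

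Of the 16 T cell markers, 1 was called (6.25%, against 2.98% of all genes tested). It was Cd247, at 2.82, 13.8 and 10.3 CPM in CLPs and at 26.7, 38.2 and 35.1 CPM in B cell progenitors, a gene of which 64.0% of the exon bases lie under Pou2f1 on the other strand, and it was not called without any 1 of the 3 mice or without the replicate block. Cd3e, of the T cell receptor complex, was at 3.60, 5.10 and 17.1 CPM and at 3.34, 4.44 and 19.2 CPM. The T cell sum was 130, 453 and 348 CPM against 128, 203 and 372 CPM. The 15 dendritic cell markers summed to 816, 1345 and 915 CPM in CLPs and to 706, 605 and 886 CPM in B cell progenitors. The 12 erythroid and megakaryocyte markers in the tests summed to 254, 515 and 209 CPM and to 245, 161 and 173 CPM, with Ppbp at 0 in the CLP library of mouse 3, and the 4 globin genes of that list were not in the tests. The 13 markers of plasma and mature B cells summed to 1700, 1151 and 1155 CPM and to 1768, 965 and 1169 CPM. In the dendritic, erythroid and plasma cell lists edgeR called 0 genes, with 2, 0 and 1 at an unadjusted p under 0.05, and DESeq2 called 1, 0 and 0. The part of other cells in the differences between the gates was not tested.

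**Figure D3:**
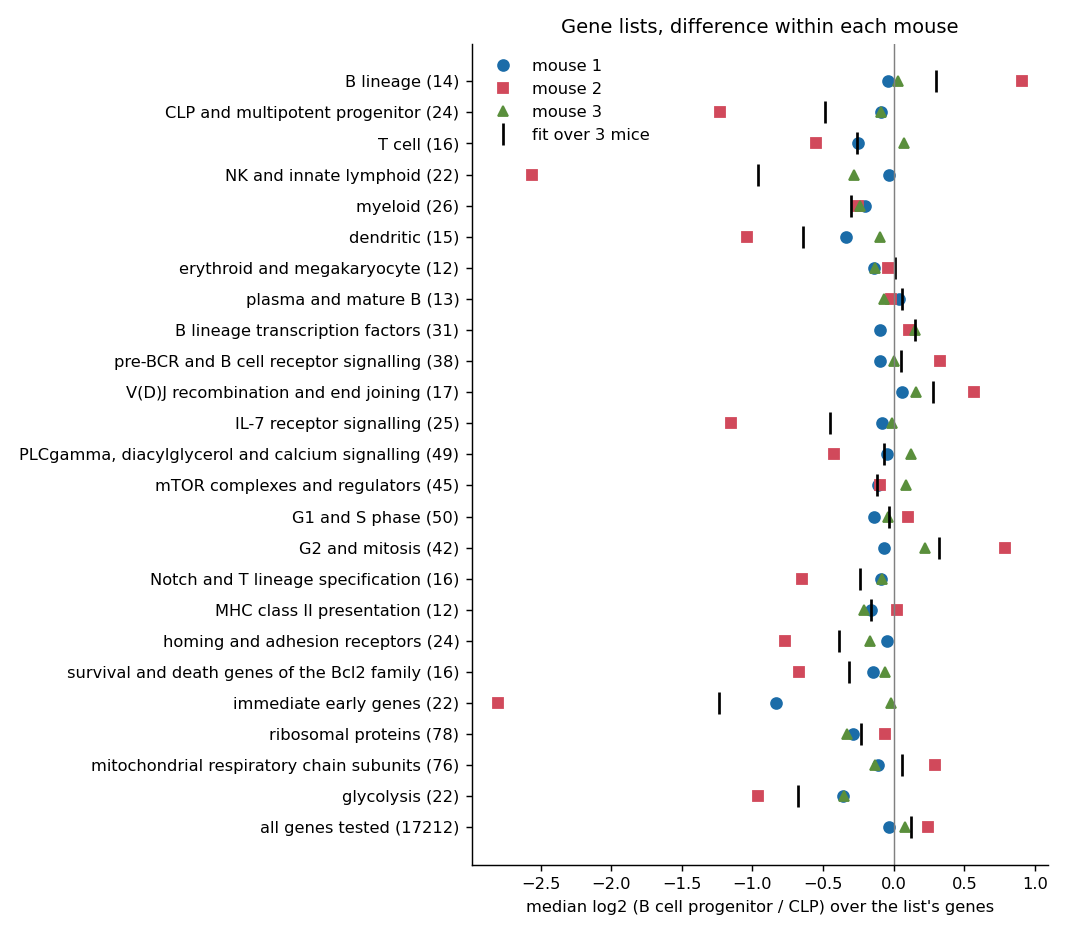
Median log2 ratio of the B cell progenitor to the CLP library over the genes of each list (number of genes in brackets), for mouse 1, mouse 2 and mouse 3 (symbols) and for the fit over all 3 mice (bars). For most lists, glycolysis among them, mouse 2 lies farthest from 0. Glycolysis genes lie below 0 in all 3 mice (-0.36, -0.96 and -0.35). Several other lists do so too, such as ribosomal protein genes (-0.29, -0.06 and -0.33) and myeloid markers (-0.20, -0.25 and -0.24).

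The IL-7 receptor list had no call by edgeR, 6 of 25 genes at an unadjusted p under 0.05, and 2 genes called lower by DESeq2. Its median of -0.45 came from mouse 2 (-1.15), since mice 1 and 3 had medians of -0.08 and -0.01. Il2rg, the γ chain shared by several interleukin receptors, was at 76.5, 184 and 116 CPM in CLPs and at 73.6, 63.8 and 88.2 CPM in B cell progenitors. Stat5a, which carries the IL-7 signal to the nucleus, was at 87.6, 92.7 and 79.0 CPM and at 74.5, 40.3 and 69.4 CPM, below in every mouse (-0.54 ± 0.19, adjusted p = 0.143). Cish, a target of STAT5 that dampens cytokine signals, was at 7.75, 29.3 and 29.0 CPM and at 3.66, 9.38 and 19.8 CPM, also below in every mouse (-1.09 ± 0.31, adjusted p = 0.080). Bcl2, the survival gene downstream of IL-7, was at 97.1, 228 and 75.6 CPM and at 91.4, 42.2 and 79.7 CPM and stood apart in mouse 2 alone.

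In the PLCγ, diacylglycerol and calcium list both tools called 0 of 49 genes and 11 had an unadjusted p under 0.05, with a median of -0.07. Nfatc1, a factor that calcium releases into the nucleus, was at 92.8, 201 and 129 CPM in CLPs and at 81.7, 68.2 and 114 CPM in B cell progenitors (-0.63 ± 0.24, adjusted p = 0.158). Plcb2, a phospholipase C of another class, was at 160, 300 and 141 CPM and at 156, 72.5 and 122 CPM (-0.74 ± 0.35, adjusted p = 0.228). Of the 45 mTOR genes tested, 2 were called (4.44%, near the 2.98% of all genes tested). Akt2, a kinase upstream of mTOR, was at 91.2, 111 and 90.4 CPM and at 68.8, 57.2 and 62.9 CPM without overlap between the gates (-0.63 ± 0.13, adjusted p = 0.0173), and its difference was -0.49 without mouse 2 and -0.84 without mouse 3, not called in either case. Mlst8, a subunit of both mTOR complexes, was at 22.2, 19.1 and 19.1 CPM and at 33.6, 32.8 and 29.4 CPM (0.67 ± 0.15, adjusted p = 0.0307). It is a gene of which 25.6% of the exon bases lie under Bricd5, and it was not called when any 1 of the 3 mice was left out. Mtor itself (0.03 ± 0.21), Rptor (-0.19 ± 0.18) and Rictor (0.11 ± 0.14), the scaffolds of the complexes, had adjusted p of 0.933, 0.484 and 0.623.

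Of 50 genes of G1 and S phase, 1 was called (2%, near the 2.98% of all genes tested). It was Ccne2, the cyclin that starts S phase, at 32.4, 20.9 and 30.3 CPM in CLPs and at 88.7, 137 and 92.2 CPM in B cell progenitors (1.92 ± 0.22, adjusted p = 0.000196). Of the exon bases of Ccne2 10.5% lie under Ints8. Its relative Ccne1, which has no such overlap, was at 36.2, 36.9 and 38.1 CPM and at 32.2, 45.6 and 46.2 CPM (0.14 ± 0.20, adjusted p = 0.660). Mcm2, a part of the replicative helicase, was at 332, 370 and 357 CPM and at 299, 306 and 333 CPM. Of 42 genes of G2 and mitosis, edgeR called 0 and DESeq2 1, and 11 had an unadjusted p under 0.05. Of these 42, 40 had a positive difference, with a median of 0.32 that was -0.07, 0.79 and 0.22 in mice 1, 2 and 3 and 0.05 without mouse 2. Of all 17212 genes tested 10067 had a positive difference, and their median was 0.12 over all genes. Exon overlap with a gene on the other strand was found for 8 of the 42. Ccna2, the cyclin of S phase and G2, was at 250, 193 and 280 CPM and at 312, 612 and 421 CPM without overlap (0.85 ± 0.28, adjusted p = 0.125), and 10.4% of its exon bases lie under Exosc9. Mki67, a marker of cycling cells, was at 1221, 1155 and 1442 CPM and at 1163, 1598 and 1725 CPM.

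Immediate early genes, which cells switch on within minutes of a stimulus, set the CLP library of mouse 2 apart. Their 22 genes summed to 5938, 37535 and 12967 CPM in CLPs and to 3518, 5979 and 12952 CPM in B cell progenitors, and the 9 CLP libraries of the other genotypes held at most 17665 CPM. Fos was at 938, 4494 and 2074 CPM and at 532, 780 and 2062 CPM. Egr1 was at 133, 2478 and 593 CPM and at 46.5, 71.9 and 561 CPM. Both genes were level in mouse 3, and in mouse 2 the B cell progenitor library was far below its CLP partner. All 22 genes had a negative difference in the fit, as had 7145 of all 17212 genes tested. Lower in the B cell progenitors of each mouse were 12 of the 22 (54.5%, against 19.9% of all genes tested). However, edgeR called 0 of the 22 (3 at an unadjusted p under 0.05) and DESeq2 1, and the median of -1.24 became -0.47 without mouse 2.

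Of the 22 glycolysis genes, 5 were called lower in B cell progenitors (22.7%, against 0.593% of all genes tested) and 0 higher. In the B cell progenitor library of each mouse 18 of the 22 were below the CLP library, as were 19.9% of all genes tested, and 13 did not overlap between the gates, which was so for 8.73% of all genes tested in that direction. The 22 include Eno1, which was under 1 CPM in every library and was not called. Gapdh (chr6:125161852-125166467), the enzyme at the middle of the pathway, was at 539, 486 and 574 CPM in CLPs and at 299, 212 and 303 CPM in B cell progenitors. The gates were far apart in each mouse (-0.99 ± 0.11, adjusted p = 0.000218), although reads of Gapdh may be shared with its many processed copies in the genome. Pgam1 (chr19:41911871-41918665), the mutase of the lower part, was at 54.2, 32.2 and 44.9 CPM and at 31.7, 15.3 and 25.6 CPM (-0.88 ± 0.14, adjusted p = 0.00341). Pfkm, an isoform of the enzyme that commits sugar to glycolysis, was at 33.1, 41.6 and 32.0 CPM and at 20.4, 21.9 and 23.1 CPM (-0.70 ± 0.16, adjusted p = 0.0374). Pkm, which makes pyruvate, was at 798, 734 and 787 CPM and at 546, 436 and 615 CPM (-0.55 ± 0.13, adjusted p = 0.0367). Ldha, which turns pyruvate into lactate, was at 539, 616 and 597 CPM and at 408, 380 and 408 CPM (-0.55 ± 0.11, adjusted p = 0.0169).

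The other members of the pathway went the same way for the most part without passing the test. Gpi1, the isomerase that follows hexokinase, was at 631, 757 and 556 CPM in CLPs and at 431, 232 and 393 CPM in B cell progenitors (-0.92 ± 0.24, adjusted p = 0.0619), and Aldoa, the aldolase, was at 434, 404 and 366 CPM and at 319, 158 and 246 CPM (-0.79 ± 0.24, adjusted p = 0.0987). Neither overlapped between the gates. Pgk1, which makes the first ATP of the pathway, was at 140, 92.0 and 123 CPM and at 124, 87.0 and 108 CPM (-0.15 ± 0.13, adjusted p = 0.477). The lactate carrier Slc16a1 was at 158, 89.0 and 195 CPM and at 156, 353 and 243 CPM, above in mice 2 and 3. The list median was -0.68 in the fit and -0.37 without mouse 2. Leaving out mouse 1, 2 or 3 left 3, 2 or 2 glycolysis calls, of which Gapdh and Pgam1 were called each time, with differences of -0.91 and -0.82 without mouse 2. Without the replicate block Pgam1 (-0.86) and Pkm (-0.54) were not called and Gpi1 (-0.88) was. DESeq2 made 8 calls, and the fit without genes under exons of the other strand, in which Pfkm and Aldoa were not tested, made 3. The fit on the 6 libraries alone with their replicate block made 0. There the differences were -1.0, -0.90, -0.72, -0.57 and -0.57 for Gapdh, Pgam1, Pfkm, Pkm and Ldha, with adjusted p of 0.0772, 0.12, 0.245, 0.279 and 0.29. In the wild-type, PLCγ2-null and double-null mice the list medians were -0.52, -0.53 and -0.57, lower than the medians of all genes in those mice, which were -0.02, 0.08 and -0.04.

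**Figure D4:**
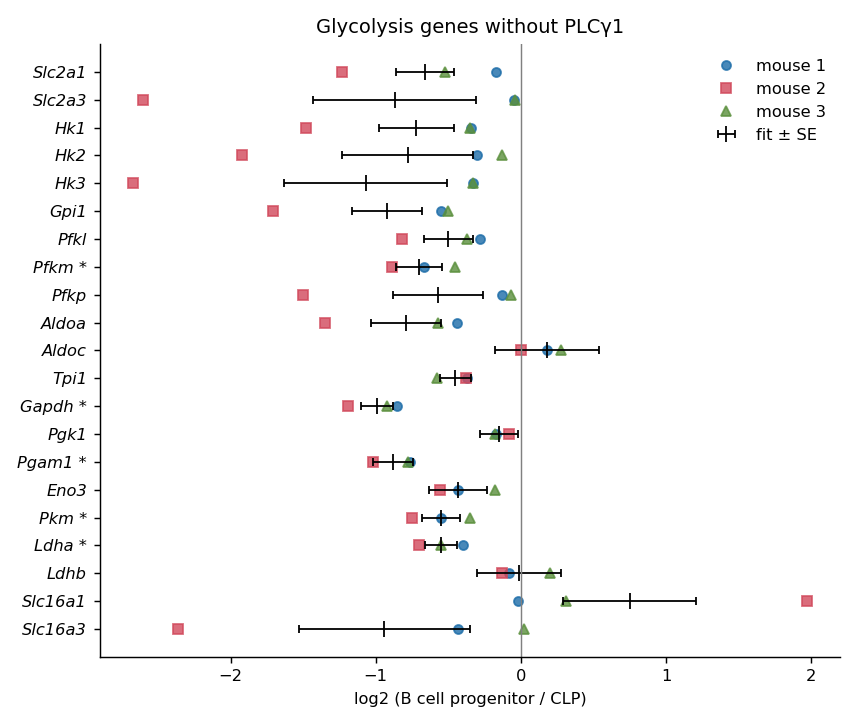
Log2 ratio of the B cell progenitor to the CLP library for 21 glycolysis genes in mice 1, 2 and 3 (symbols) and in the fit (bar with SE), with called genes starred and Eno1 left out because it was under 1 CPM in every library. Gapdh, Pgam1, Pfkm, Pkm and Ldha lie below 0 in each mouse, and mouse 2 has the lowest value of each.

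Of 78 ribosomal protein genes tested, 12 were called lower (15.4%, against 0.593% of all genes tested) and 2 higher (17.9% together, against 2.98%). Lower in the B cell progenitors of each mouse were 43 (55.1%, against 19.9% of all genes tested), and 26 did not overlap in that direction (33.3%, against 8.73%). Rps16 (chr7:28350689-28352698), a protein of the small subunit, was at 669, 566 and 561 CPM in CLPs and at 254, 207 and 214 CPM in B cell progenitors, with almost the same ratio in each mouse (-1.41 ± 0.09, adjusted p = 1.45e-06). Rpl29, of the large subunit, was at 303, 247 and 265 CPM and at 140, 102 and 113 CPM (-1.21 ± 0.10, adjusted p = 1.26e-05). Rpl27 and Rpl10a had differences of -1.04 ± 0.11 and -0.99 ± 0.09, and Rps7 of -0.82 ± 0.10. Not all members went this way. Rpl39, also of the large subunit, was higher in B cell progenitors, at 222, 159 and 157 CPM in CLPs and at 360, 439 and 290 CPM (1.02 ± 0.15, adjusted p = 0.00129), and so was Rpl37rt, a retrotransposed copy, by 1.34 ± 0.16. The 78 genes together took 58948, 45629 and 48179 CPM in CLPs and 48860, 43960 and 39070 CPM in B cell progenitors. The list median was -0.23, or -0.33 without mouse 2, where 11 genes were called lower and 2 higher. The fit on the 6 libraries alone called 2 lower (Rps16 and Rpl29) and 1 higher (Rpl37rt), and the adjusted p of Rpl27, Rpl10a and Rps7 rose to 0.0807, 0.062 and 0.0861 with differences of -1.06, -1.01 and -0.83. Many of these genes have processed copies elsewhere in the genome, and how the counting divided their reads is not given in the sources used here.

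Subunits of the mitochondrial respiratory chain had no common direction. Of 76 tested, 3.95% were called, near the 2.98% of all genes tested. Uqcrb was called higher (0.75 ± 0.16), and Ndufa3 and Atp5l were called lower (-0.63 ± 0.11 and -2.17 ± 0.46). The list median was 0.06, close to that of all genes. Atp5l was at 9.73, 6.14 and 9.59 CPM in CLPs and at 1.43, 3.30 and 1.03 CPM in B cell progenitors, and Uqcrb at 60.6, 33.5 and 47.2 CPM and at 83.7, 79.5 and 68.2 CPM, with 9.3% of its exon bases under Gm10767. Uqcrb was not called when any 1 mouse was left out, Atp5l without mouse 1 or 3 and Ndufa3 without mouse 2. Of 24 homing and adhesion receptors, 7 were lower in B cell progenitors without overlap between the gates (29.2%, against 8.73% of all genes tested). Of these 24 receptors 1 was called (4.17%, near the 2.98% of all genes tested). It was S1pr4, a receptor for sphingosine 1-phosphate, at 87.6, 137 and 103 CPM and at 68.5, 73.9 and 74.9 CPM (-0.57 ± 0.14, adjusted p = 0.0429). It was called neither without the replicate block nor without mouse 2 or mouse 3. In the 16 genes tested of the Bcl2 family both tools called 0, with 3 at an unadjusted p under 0.05. Among these, Bax, which opens mitochondria in dying cells, was at 84.6, 78.8 and 87.7 CPM and at 53.5, 62.1 and 63.6 CPM, with an adjusted p of 0.0414 but a difference of -0.49 ± 0.12 that fell short of 0.5. The Notch list of 16 genes and the MHC class II list of 12 had 0 calls by edgeR, 1 and 3 genes at an unadjusted p under 0.05, and medians of -0.24 and -0.16. DESeq2 called 0 and 1 of them.

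The genes called higher were sorted by whether their exons lie under exons of a gene on the other strand in the GENCODE annotation. Of the 411, 288 (70.1%) had such an overlap, as had 18 of the 102 called lower (17.6%) and 13.9% of all genes tested. Among 14187 genes with no overlap, 0.663% were called higher and 0.585% lower (1.25% together). Among 2390 genes with any overlap, 12.1% were called higher and 0.753% lower. The share called higher was 5.5% where up to 10% of the exon bases were overlapped, 15.7% from 10 to 25%, 23% from 25 to 50%, 37.8% from 50 to 75% and 31.6% above 75%, and in the last class the median difference of all 38 genes was 2.94. The kit is not described as one that keeps strand, and reads of a gene and of its partner on the other strand cannot be told apart without it.

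**Figure D5:**
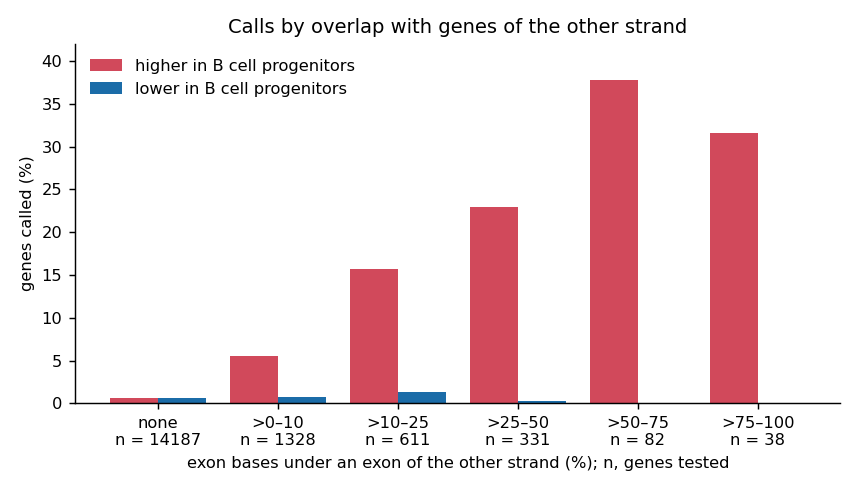
Share of tested genes called higher and lower in B cell progenitors (bars, percent) by the share of a gene's exon bases that lie under exons of a gene on the other strand, with the number of genes tested. The share called higher is 0.663% with no overlap and 37.8% at 50 to 75% overlap, and the share called lower stays at or below 1.31%.

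The largest rises were of this kind. Of the 15 largest among 294 eligible genes, 13 had exon overlap and 1 had no exons in the annotation used. Bricd5 (chr17:24473487-24475471), whose exon bases lie wholly under Mlst8, had no read in the CLP libraries and was at 16.6, 13.8 and 11.5 CPM in the B cell progenitor libraries, at least 39.0-fold higher when its lowest value is set against the highest floor of the CLP libraries, 3 reads or 0.294 normalised CPM. Sco2, 66.2% under Ncaph2, had no read in CLPs and 10.2, 13.8 and 14.4 CPM (at least 34.7-fold), and Msmp, wholly under Rgp1, had 11.6, 7.35 and 12.1 CPM (at least 25-fold). The floors cover counting error only. Tsix (chrX:103431517-103484957) was at 0, 0.248 and 0 CPM in CLPs and at 175, 70.5 and 115 CPM in B cell progenitors, while Xist was at 1851, 2314 and 1294 CPM and at 2191, 1463 and 2044 CPM. Acat3, a thiolase 25.9% under Tcp1, was at 0.0601, 0.446 and 0.587 CPM and at 58.7, 81.4 and 63.8 CPM. Masp2, a protease of the complement system made by the liver, was at 0.12, 0 and 0 CPM and at 21.7, 27.9 and 22.7 CPM and lies 56.3% under Tardbp. Agreement among the 3 mice and separate gates were conditions of the choice of these genes. The others were Mir1198, E130218I03Rik, LOC100503496, 4933408J17Rik, Gm15441, 1700094J05Rik, Zfp385c, 1700034P13Rik and Phtf1os, with log2 differences from 9.17 to 6.49.

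The largest falls among 86 eligible genes were smaller, and 1 of the 15, Erh, had exon overlap. Dynlt1b, 1 of several near-identical copies of a dynein light chain gene, was at 15.7, 18.2 and 13.6 CPM in CLPs and at 1.11, 1.52 and 0.171 CPM in B cell progenitors (-4.11 ± 0.42, adjusted p = 8.56e-05), a value made uncertain by the copies. Gstp1, a glutathione transferase, was at 47.6, 50.6 and 60.5 CPM and at 16.1, 27.6 and 17.4 CPM (-1.40 ± 0.17, adjusted p = 0.000271). Cyba, a subunit of the NADPH oxidase of phagocytes, was at 261, 180 and 197 CPM and at 162, 87.2 and 99.0 CPM (-0.91 ± 0.14, adjusted p = 0.00204). Crtc2, a co-activator of CREB, was at 88.5, 138 and 104 CPM and at 62.6, 52.7 and 65.8 CPM (-0.85 ± 0.16, adjusted p = 0.011). Their direction in every mouse and the lack of overlap were conditions of the choice. Cyba was not called without the replicate block (-0.87), and Crtc2 was not called without mouse 2 (-0.60) or mouse 3 (-1.10). The rest comprised Prmt2, AI506816, Polr2k and Tmem63a, each of which lost its call without at least 1 of the mice, and the ribosomal and glycolysis genes Rps16, Rpl29, Rpl27, Rpl10a, Gapdh and Pgam1.

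When the genes with exon overlap were left out before the fit, 75 of 14278 genes were called (0.525%), 29 higher and 46 lower, and 70 of the 75 were also called with all genes. This fit was chosen after seeing the data. Of the 46 lower genes 14 were ribosomal protein genes and 3 glycolysis genes. The higher genes named next were picked after their values were seen. Apex1 (chr14:50924949-50927188), an endonuclease of base excision repair, was at 27.8, 28.0 and 27.3 CPM in CLPs and at 97.4, 106 and 105 CPM in B cell progenitors, with a spread within each gate of a few CPM (1.89 ± 0.12 with all genes). Hnrnph3, an RNA-binding protein, differed by 2.65 ± 0.21 and Rufy2 by 1.58 ± 0.17. Hjurp, the chaperone of the centromeric histone CENP-A, was at 26.4, 37.6 and 36.2 CPM and at 56.8, 83.9 and 89.4 CPM (1.19 ± 0.14, adjusted p = 0.000324). Ppp2r5a, a subunit of a phosphatase, was at 187, 182 and 154 CPM and at 303, 347 and 326 CPM (0.90 ± 0.14, adjusted p = 0.0024), and was not called without mouse 3 (0.65). Although their exons do not overlap, 18 of the 29 higher and 22 of the 46 lower genes have a gene on the other strand over them or within 1000 bases. Of the 14187 genes without exon overlap in the fit with all genes, 6816 have such a neighbour.

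Genes not known in lymphoid cells were read as a gauge of reads from outside expressed genes. Of 25 nervous system receptor genes tested, edgeR and DESeq2 called 0, 2 had an unadjusted p under 0.05, and the median difference was -0.02, 2.47 and 0.49 in mice 1, 2 and 3. Gria1, a glutamate receptor of neurons, was at 1.02, 0.396 and 0.685 CPM in CLPs and at 0.159, 12 and 1.37 CPM in B cell progenitors, where library 2 alone was high. Among 3168 genes under 1 CPM in all 3 CLP libraries, the median level was 0.318, 3.169 and 0.855 CPM in B cell progenitor libraries 1, 2 and 3. This order is also that of their shares of reads on no gene (66.5, 87.3 and 73.6%), and the part of such reads in the values of mouse 2 was not tested. Of 10 genes tested of other organs 1 was called (10%, against 2.98% of all genes tested). It was Apoa2, a liver apolipoprotein, at 0.421, 0.594 and 0.685 CPM and at 4.62, 4.69 and 5.30 CPM (3.10 ± 0.38, adjusted p = 0.000324).

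Whether the difference between the gates depended on PLCγ1 was asked by contrasts of the differences between genotypes, which share no library. Against the wild type 0 of 17212 genes (0%) were called by edgeR and 0 by DESeq2, with 380 and 843 genes at an unadjusted p under 0.05. Against the PLCγ2-null mice the numbers were 0 and 0, with 326 and 396, and against the double-null mice 0 and 0, with 455 and 699. Of the 513 genes called in the PLCγ1-null mice, 506 (98.6%) had the same direction in the fit of all 3 other genotypes, as had 50.7% of all genes tested. The gates also differed in reads on no gene in all 4 genotypes (17.9 to 45.2% in CLPs, 59.9 to 87.3% in B cell progenitors). Of the 411 genes called higher, 288 had exon overlap with the other strand. The part of read assignment in this agreement was not tested. For Rps16 the differences were -1.37, -1.42 and -1.24 in the wild-type, PLCγ2-null and double-null mice, for Gapdh -0.84, -0.71 and -0.86, and for Tsix 9.28, 5.68 and 8.54. Among genes not called in the PLCγ1-null mice, Rag1 differed by 0.95, 0.48 and 0.57 and Flt3 by -1.19, -1.44 and -0.35 in the 3 genotypes. None of these genes passed the test of a difference between genotypes, which does not show that the genotypes were alike. The CLP libraries without PLCγ1 held 30805, 46716 and 13224 Xist reads among 16397240, 22518025 and 9837850 reads on genes. The wild-type CLP libraries held 1120, 97 and 11306 among 13848722, 4291310 and 33219995. The sex of each mouse is not given in the sources used here, and the part of sex in the contrasts was not tested.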

How the data were processed

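Poly(A) RNA of sorted cells (TRIzol LS, NEBNext Ultra RNA kit, NextSeq 500) was sequenced in 24 libraries. The authors deposited raw read counts per gene for 24421 genes, and the submitters' processing notes name STAR 2.5.0a and mm10, while the counting program and its strand setting are not given in the sources used here. Rows for reads on no gene and for ambiguous reads were kept out of library sizes and tests. No columns of comparisons made by the authors were used. Depth was 5735871 to 22518025 reads on genes in the 6 libraries, and precision is limited by 3 mice.

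Counts were analysed with edgeR 4.0.16 (R 4.3.3): TMM scaling (factors 0.897 to 1.07), filterByExpr by group, and quasi-likelihood F tests over all 24 libraries with the mouse as a block and 1 population coefficient per genotype, which left 8 residual degrees of freedom. P-values were Benjamini-Hochberg adjusted over 17212 genes. The SE is the log2 difference divided by the root of F. Ratios within a mouse were taken after adding 1 CPM. The pairing rests on the animal identifier shared by both libraries. Deviations from the group means correlated at 0.238, -0.35 and -0.0727 within mice 1, 2 and 3. Between libraries of different mice they correlated at -0.477 to 0.464, so pairs of the same mouse did not stand out by this measure. No replicate pair agreed within sampling noise. Exon overlap came from the GENCODE M21 basic annotation of the same build (23376 genes matched), and positions from RefSeq (24295 genes matched). The fit was run on simulated counts, in which the dispersion of a gene was the same in every library. A mouse that stands apart as mouse 2 does was not simulated. Python 3.11.15, pandas 2.3.3 and matplotlib 3.10.9 made tables and figures.

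The members and the gene lists were chosen with earlier results of these data known. Genes are named if they belong to a list, are the 15 largest rises or falls among called genes that change alike in all 3 mice, do not overlap between populations and reach a mean of 10 CPM, or check the labels, and a few others are marked as picked later. Alternatives were RLE scaling, filters on low counts, no block, the 6 libraries alone, DESeq2 1.42.0, no minimum fold, thinned counts and leaving out each mouse. Leaving out genes with exon overlap and a log2 minimum of 1 were added after seeing the data.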

Additional observations from a re-analysis of the deposited data

Results flagged for a closer look

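Reads on no gene, which enter no comparison, took a larger share in 3 of the 6 libraries than in any wild-type library of the same population. The CLP library of mouse 3 had 33.8% of its reads on no gene, where the 3 wild-type CLP libraries had 24.8 to 29.8%. The B cell progenitor libraries of mice 2 and 3 had 87.3% and 73.6%, where the wild-type B cell progenitor libraries had 59.9 to 71.4%. Libraries of PLCγ2-null mice also passed these ranges, with 45.2% in a CLP library and 75.8% and 74.9% in B cell progenitor libraries, so that of the 3 values the 87.3% alone was above all other libraries of its population. Groups of 3 libraries were too small to be tested for a single outlying library.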

How the results depend on the processing

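The count of 513 genes between the populations stayed within 1.5 times under RLE scaling (535), the stricter filter (567), adjusted p alone (553), thinned counts (346) and without a filter (445, of which 64.9% were higher against 80.1%). Without the replicate block, that is, without the pairing by mouse, 650 genes were called, 452 of them shared. The count moved to 96 (94 higher and 2 lower, or 97.9% higher) with the 6 libraries alone and their replicate block, which leaves 2 residual degrees of freedom, to 1326 with DESeq2 and to 315 with a log2 minimum of 1. Leaving out genes with exon overlap gave 75, with 38.7% higher. Leaving out 1 mouse gave 221 to 326, lowest without mouse 3 and highest without mouse 1, and without mouse 2 it gave 271 with 29 lower. The cause was not tested. The contrasts between genotypes had 0 calls under all 13 alternatives. Of 51 called genes named here, 33 lost the call under at least 1 alternative, and 0 were reversed. The depth of the B cell progenitor libraries limits genes under about 0.513 CPM, or 3 reads.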
